A study of Mus musculus with 25 samples.

Results

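The 34 interferon-stimulated genes are genes whose transcripts rise when a cell receives an interferon signal, among them *Isg15*, *Ifit1*, *Oas1a*, *Mx1*, *Stat2* and *Gbp2*. They were given as a list of symbols, current or older, and were matched to the Ensembl identifiers of the deposited table of normalized counts. All 34 were found among the 48795 genes of the table, and all 34 were among the 14141 genes with a mean normalized count of at least 10 that entered the tests. RNA sequencing was carried out on 25 libraries of thymocytes sorted as positive for the T lineage antigen *Thy1* and negative for CD44, each from a different mouse aged 7 to 8 weeks. Every mouse was *Rag1*-deficient, so its thymocytes make no TCRβ chain and wait before β-selection, and every mouse carried CD2-Cre, a transgene that acts in lymphoid cells. The controls were *Wnk1* fl/+ and so lose 1 *Wnk1* allele in these cells, and the WNK1-deficient mice were *Wnk1* fl/fl and lose both. Mice were taken without injection (0 hr) or at 3, 24 or 48 hr after an intraperitoneal injection of 150 µg of anti-CD3ε, an antibody that stands in for the pre-TCR signal, which gave 8 groups of 3 libraries, except for 4 libraries of WNK1-deficient thymocytes at 0 hr.

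Type I and type III interferons act through receptors that use the kinases JAK1 and TYK2 to activate a complex that holds STAT2 and IRF9, which binds the interferon-stimulated response element (ISRE) of target genes. Interferon-γ signals through JAK1 and JAK2, and many of the genes it induces carry a gamma-activated site (GAS). The products of these genes sense foreign nucleic acids, block viral RNA and protein synthesis, guard membranes and vacuoles, and feed back on the pathway, and many of them are also kept at a basal level by low interferon signalling in uninfected tissue.

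Depth ran from 22527777 to 57304830 reads per library. *Wnk1* was lower in WNK1-deficient than in control thymocytes at every time, with libraries from 3037 to 9046 against 5407 to 20719 normalized counts. The summed level of 8 markers of DN3 and DN4 thymocytes was at least 70670.2 in every library, and *Siglech*, a defining marker of plasmacytoid dendritic cells, never exceeded 4.90. Genes such as *Il2ra* and *Lck* (means 47976 and 47519 over all libraries) carried that sum of 8 markers. *Ptcra*, also on that list, had a mean of 3461 and was far lower in some injected libraries. A further gene of the 4 on the plasmacytoid dendritic cell list, *Pld4*, an exonuclease gene, was not near 0, and its WNK1-deficient libraries lay below the controls at all 4 times. Of the 10 thymic stroma markers *Pdgfrb*, *Pecam1* and *Epcam* gave most of the sum, with means of 8041, 7865 and 1688 over all libraries, while *Foxn1*, which defines thymic epithelium, never exceeded 18.7. Replicate 3 of the controls at 3 hr, replicate 3 of the controls at 24 hr, and replicate 3 of the WNK1-deficient group at 48 hr are named as apart below for the marker levels given next. No cut-off was set for this choice. Those at 24 and 48 hr were also the lowest of their group for 33 and the highest for 29 of the 34 genes. Every count given without these libraries is thus a description and no separate support for a difference. Over all tested genes their mean correlations with the other libraries of their groups were 0.960, 0.954 and 0.957, the lowest of the group for the 24 and 48 hr libraries but not for that at 3 hr, where control replicate 1 was at 0.958. Control replicate 3 at 3 hr held 12652 normalized counts of *Cd8a*, a marker of double positive thymocytes, against 54.0 and 432 in its group. *Ptcra* stood at 2344 in control replicate 3 at 24 hr against 59.2 and 115, and at 574 in WNK1-deficient replicate 3 at 48 hr against 18.2 and 22.5. By the lane number in the library names, all control libraries at 0 hr came from lane 1 and all WNK1-deficient libraries from lane 2, so that genotype and lane cannot be told apart there. All libraries at 3 and 24 hr came from lanes 3 and 4. Lane thus cannot be told apart from time in their comparisons with 0 hr. The WNK1-deficient libraries at 48 hr came from lanes 1 and 3 and shared no lane with those at 0 hr, so the same holds there. Of the 48 hr controls only replicate 3 came from lane 1. *Xist*, a transcript of female cells, ranged from 10918 to 45584 at 0 and 48 hr and from 0 to 13.8 at 3 and 24 hr, so that sex cannot be told apart from time in any comparison of 3 or 24 hr with 0 hr.

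To show which of the genes carry the DNA element that the type I interferon factors bind, promoter windows of RefSeq (GRCm38.p6, 250 bases before to 50 bases after the start) were searched on both strands for the ISRE core GAAANNGAAA. Of the 26 members with a window, 16 held a match (61.5%), against 3.99% of the 27025 genes with a window in the whole table. The GAS core TTCNNNGAA was found in 9 of the 26 (34.6%) and in 9.55% of all genes. The stretches shown belong to 5 of the 8 members that passed a test between the genotypes and to *Ifit1* and *Ifit3*, which were among the members with the largest differences at 24 and 48 hr. They lie at chr4:156200871-156200900 for *Isg15* (- strand, 78 bases before the start), chr8:71537580-71537609 for *Bst2* (- strand, 130 bases before the start), chr2:62646206-62646231 for *Ifih1* (- strand, 32 bases after the start), chr3:142559992-142560021 for *Gbp3* (+ strand, 45 bases before the start), chr10:128270268-128270293 for *Stat2* (+ strand, 222 bases before the start), chr19:34640777-34640802 for *Ifit1* (+ strand, 104 bases before the start) and chr19:34583399-34583424 for *Ifit3* (+ strand, 122 bases before the start). Of the 7, only that of *Ifih1* lies after the start used for its window. For *Gbp3* and *Ifit3* that start is not the first base of the gene. *Ifit3* spans chr19:34583119-34588982, so its stretch lies inside the gene, and that of *Gbp3* runs past the first base of the gene. The capitals mark the ISRE cores on either strand, joined where they overlap, and each stretch is written 5′ to 3′ on the strand of its gene.
Isg15: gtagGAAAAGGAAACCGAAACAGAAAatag
Bst2: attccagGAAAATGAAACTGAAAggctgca
Ifih1: agagaatcGAAACAGAAAccgatctg
Gbp3: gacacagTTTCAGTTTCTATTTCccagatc
Stat2: caccctggTTTCAGTTTCctttccct
Ifit1: ggcttcagTTTCACTTTCcagtctca
Ifit3: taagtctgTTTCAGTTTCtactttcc

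In *Isg15* 3 cores overlap in 1 run, and in *Bst2* and *Gbp3* 2 cores do. *Ifit1* and *Ifit3* each held a further core that is not shown. *Samhd1* and *Ifit2* held a GAS core and no ISRE core in their windows, and *Zbp1* had no window in the table. In the same build the 8 members that passed a test between the genotypes are the genes *Isg15* (chr4:156199424-156200818), *Ifih1* (chr2:62595618-62646255), *Bst2* (chr8:71534255-71537472), *Ifit2* (chr19:34550550-34576534), *Gbp3* (chr3:142560016-142573213), *Zbp1* (chr2:173206612-173218959), *Stat2* (chr10:128270498-128292853) and *Samhd1* (chr2:157097534-157135096). Their counts were estimated per gene. A match is a run of letters and says nothing of binding in these cells.

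As a description of each library, the median over the 34 genes of the deviation from each gene's mean over 25 libraries was taken on the log2 scale. The highest values were those of the 24 hr controls 1 and 2 (0.98 and 0.74) and of the uninjected WNK1-deficient replicates 1 and 4 (0.78 and 0.76). The lowest were those of the 48 hr WNK1-deficient replicates 1 and 2 (-0.78 and -0.62) and of the 24 hr control 3 (-0.61).

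**Figure D1:**
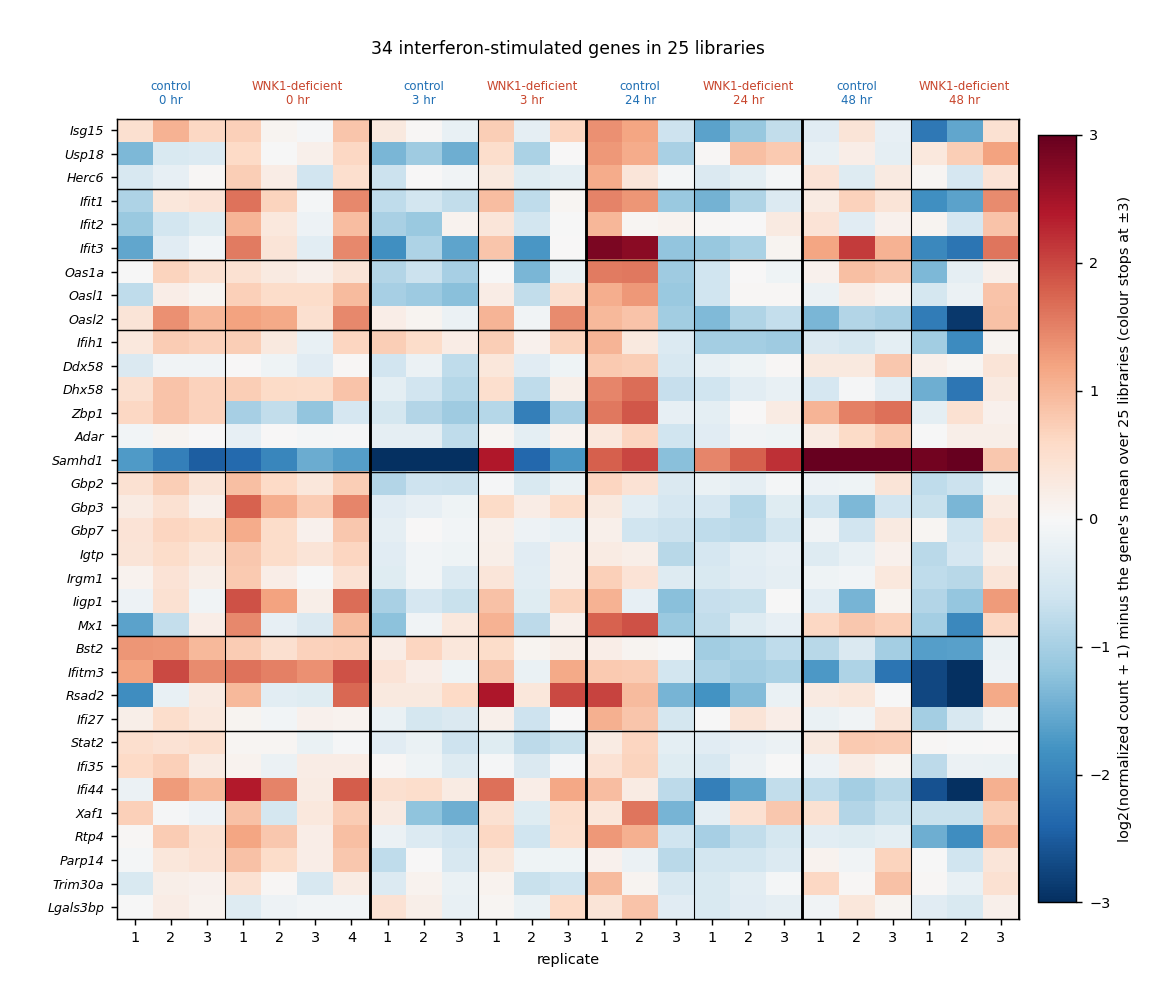
The log2(normalized count + 1) of each of the 34 genes, as the deviation from the gene's mean over 25 libraries (colour, stopping at 3 in either direction), in every library (columns, grouped by time and genotype). Rows are in the order of the role groups of the text. Control replicates 1 and 2 at 24 hr are red for most genes and control replicate 3 is blue, and WNK1-deficient replicate 3 at 48 hr is red where replicates 1 and 2 are blue.

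Within its group, control replicate 3 at 24 hr was the lowest library for 33 of 34 genes. Among WNK1-deficient libraries, replicate 3 was the highest of the 48 hr group for 29 genes and of the 24 hr group for 28, and replicate 1 was the highest of the 3 hr group for 27. The median SD of the 34 genes within a group was 0.81 on the log2 scale in the 24 hr controls and 0.75 in the 48 hr WNK1-deficient group, against 0.33 and 0.32 over all tested genes. In the other 6 groups it lay between 0.22 and 0.48, against 0.12 to 0.30 over all tested genes. It was 0.48 against 0.20 in the 3 hr WNK1-deficient group, and below that of all genes only in the 3 hr controls (0.22 against 0.27).

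**Figure D2:**
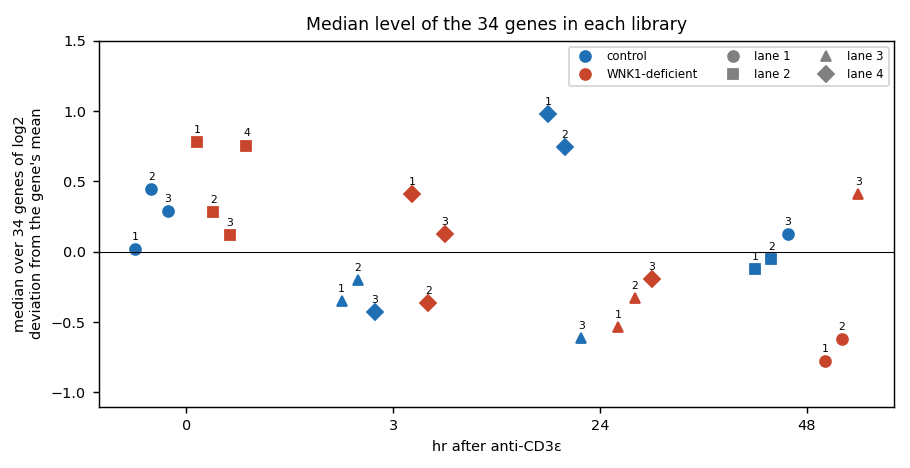
Median over the 34 genes of the log2 deviation from each gene's mean (vertical axis) for each library, by time (horizontal axis), genotype (colour) and lane number in the library name (shape), with the replicate number above each point. At 24 hr the control libraries of lane 4 stand at 0.98 and 0.74 and the control library of lane 3 at -0.61, and at 48 hr the WNK1-deficient library of lane 3 stands at 0.41 and those of lane 1 at -0.78 and -0.62.

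The comparison at 0 hr asked whether loss of WNK1 changed these genes before any signal. At 0 hr 4 of the 34 differed between the genotypes: *Ifit2* and *Gbp3* were higher in WNK1-deficient thymocytes and *Zbp1* and *Stat2* were lower. Of all tested genes 11% were higher and 11.1% lower, so that 2 of 34 in each direction is not above the background. The median log2 difference over the 34 genes was 0.13, and that over all tested genes was -0.00. In bulk RNA a lower level can come from fewer cells of a type or from less RNA per cell, and these cannot be told apart in any result here.

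*Zbp1*, a sensor of Z-form nucleic acids that can start cell death, stood at 2286, 2693 and 2391 normalized counts in the control libraries at 0 hr and at 737, 891, 646 and 1045 in the WNK1-deficient libraries. No WNK1-deficient library came near the lowest control. The log2 difference was -1.59 (SE 0.37, limma adjusted p = 0.00399), a level 3.00-fold lower. *Stat2*, the interferon-specific STAT, stood at 2549.7, 2434 and 2550.1 in control libraries and at 1877, 1869, 1577 and 1747 in WNK1-deficient libraries, and its groups did not overlap. Its log2 difference was -0.51 (SE 0.16, limma adjusted p = 0.0309).

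*Ifit2*, which binds viral RNA and can hinder translation, was measured at 377, 553 and 628 in controls and at 1663, 1015, 734 and 1557 in WNK1-deficient thymocytes at 0 hr. The log2 difference was 1.21 (SE 0.36, limma adjusted p = 0.0186). For *Gbp3*, a guanylate-binding protein of the large GTPases that coat pathogen vacuoles, the control libraries held 1084, 1264 and 1019.6 and the WNK1-deficient libraries 3138, 1954, 1550.1 and 2529. The groups of both genes were apart, and in both the lowest WNK1-deficient library was replicate 3. The log2 difference of *Gbp3* was 0.99 (SE 0.29, limma adjusted p = 0.0207). The calls of *Ifit2* and *Gbp3* were lost without control replicate 1 (limma adjusted p = 0.112 and 0.0728), without WNK1-deficient replicate 1 (0.0632 and 0.0737) and without WNK1-deficient replicate 4 (0.0592 and 0.0560), and that of *Gbp3* also without control replicate 3 (0.0637). The call of *Stat2* was lost without any 1 of the control libraries (0.0699 to 0.0969) or without WNK1-deficient replicate 3 or 4 (0.0721 and 0.0628), and that of *Zbp1* was kept in each of these fits.

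With the lane as a covariate, none of the 4 passed at 0 hr, with limma adjusted p of 0.200 for *Ifit2*, 0.291 for *Zbp1*, 0.0769 for *Gbp3* and 0.625 for *Stat2*. The lane term there rests on the 48 hr controls, the only group with libraries from both lane 1 and lane 2. Of all tested genes 375 were higher and 290 lower in that fit, so it cannot separate lane from genotype at 0 hr. Without the 3 libraries named as apart, which only changes the estimate of the spread at this time, 5 members were higher, with *Usp18*, *Oasl1* and *Iigp1* added, and 3 were lower, with *Bst2* added. In that fit 1859 of the 14141 tested genes were higher and 1872 lower, against 1552 and 1572 with all libraries. The summed level of the 8 DN3 and DN4 markers was 449364 to 499082 in control and 286889.8 to 334856 in WNK1-deficient libraries at 0 hr, and that of 9 markers of macrophages, monocytes and dendritic cells was 2368 to 2886 against 833 to 2329, so that both were lower in WNK1-deficient thymocytes. The plasmacytoid dendritic cell list summed to 18780.4 to 21331 against 2457 to 3497, nearly all of it *Pld4* (log2 difference -2.76, limma adjusted p = 1.51e-07). The 10 thymic stroma markers ran the other way, at 10648 to 13343 against 18215 to 20148. The lists for double positive, NK and innate lymphoid, B, erythroid and neutrophil cells overlapped between the genotypes. Their part in the differences of the members was not tested.

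**Figure D3:**
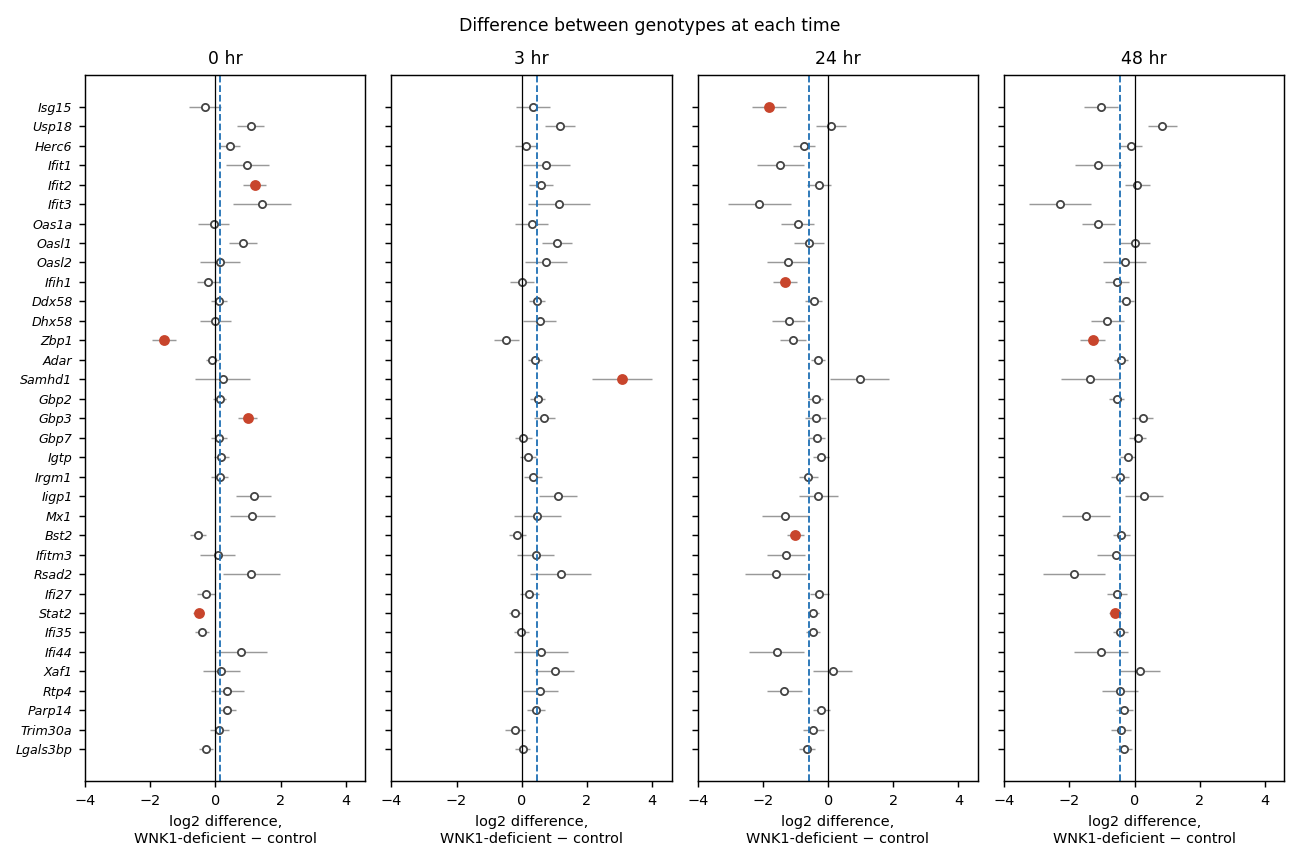
Log2 difference of each of the 34 genes between WNK1-deficient and control thymocytes (horizontal axis, error bars are the SE of limma) at 0, 3, 24 and 48 hr (panels). Filled red points passed the test over all genes (adjusted p below 0.05), open points did not, and the dashed blue line is the median over the 34 genes, which was 0.13, 0.45, -0.60 and -0.44.

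At 3 hr the question was whether the early response to anti-CD3ε differed. *Samhd1* was the only 1 of the 34 genes past the test, and it was higher in WNK1-deficient thymocytes, where 5.75% of all genes were higher and 3.43% lower. The log2 difference was above 0 for 29 of the 34 genes, with a median of 0.45 against -0.02 over all tested genes, so that most members were measured higher but did not pass. *Samhd1* is a dNTP hydrolase that limits reverse transcription. Its control libraries at 3 hr held 45.1, 33.6 and 36.7 normalized counts and its WNK1-deficient libraries 2585, 94.3 and 145. The groups were apart, but replicate 1 stood far above the other WNK1-deficient libraries. The log2 difference of 3.08 (SE 0.91, limma adjusted p = 0.0365) became 3.97 without WNK1-deficient replicate 2. Without replicate 1 it became 1.59 and the call was lost (limma adjusted p = 0.244), as it was without any 1 of the control libraries (0.0573 to 0.0939) and with the lane as a covariate (0.177). Of the marker lists, those for plasmacytoid dendritic cells (3964 to 8694 in control and 1186 to 1902 in WNK1-deficient libraries) and thymic stroma (13910.0 to 23030 against 24593 to 28093) did not overlap at 3 hr, and their part in the difference was not tested.

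The next differences in size after *Samhd1* at 3 hr were those of *Rsad2*, *Usp18* and *Ifit3*, at 1.19, 1.17 and 1.15 on the log2 scale. *Rsad2*, or viperin, which makes a nucleotide that ends viral RNA chains, stood at 379, 378 and 472 in controls and at 1680.2, 394 and 1226 in WNK1-deficient thymocytes. *Usp18*, the protease that removes ISG15 and damps the type I receptor, stood at 503, 617 and 467 against 1866, 674 and 1313. In WNK1-deficient replicate 2 both genes were near the control level, and this library was the lowest of its group for 32 of the 34 genes. Neither passed the test (limma adjusted p = 0.486 for *Rsad2* and 0.114 for *Usp18*).

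At 24 hr 3 members, *Isg15*, *Ifih1* and *Bst2*, were lower in WNK1-deficient than in control thymocytes and no member was higher, where 5.45% of all genes were lower and 7.03% higher. The median log2 difference of the 34 genes was -0.60, against 0.00 over all tested genes, and 31 of the 34 lay below 0.

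*Isg15* encodes a ubiquitin-like protein that is attached to other proteins after interferon. It stood at 2267, 1995 and 567 normalized counts in control libraries at 24 hr and at 286, 399 and 522 in WNK1-deficient libraries. The groups did not overlap, but control replicate 3 lay close to the highest WNK1-deficient library. The log2 difference was -1.81 (SE 0.52, limma adjusted p = 0.0265), a level 3.5-fold lower. It was -2.44 without control replicate 3, and the call was lost without control replicate 1 or 2 (limma adjusted p = 0.114 and 0.0821) or WNK1-deficient replicate 1 or 2 (0.110 and 0.0750).

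*Ifih1*, or MDA5, a cytoplasmic sensor of long double-stranded RNA, stood at 2248, 1366 and 845 in controls and at 552, 549 and 531 in WNK1-deficient thymocytes. The WNK1-deficient libraries lay close together and all lay below the controls. The log2 difference was -1.34 (SE 0.36, limma adjusted p = 0.0201), and the call was lost without control replicate 1 (0.106) or any 1 of the WNK1-deficient libraries (0.0558 to 0.0619). *Bst2*, or tetherin, which holds budding viruses at the cell surface, stood at 2188, 2014 and 1915 against 922, 995 and 1139. Here the groups were well apart and control replicate 3 was near its group. The log2 difference was -1.0 (SE 0.26, limma adjusted p = 0.0152), a level 2.01-fold lower.

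**Figure D4:**
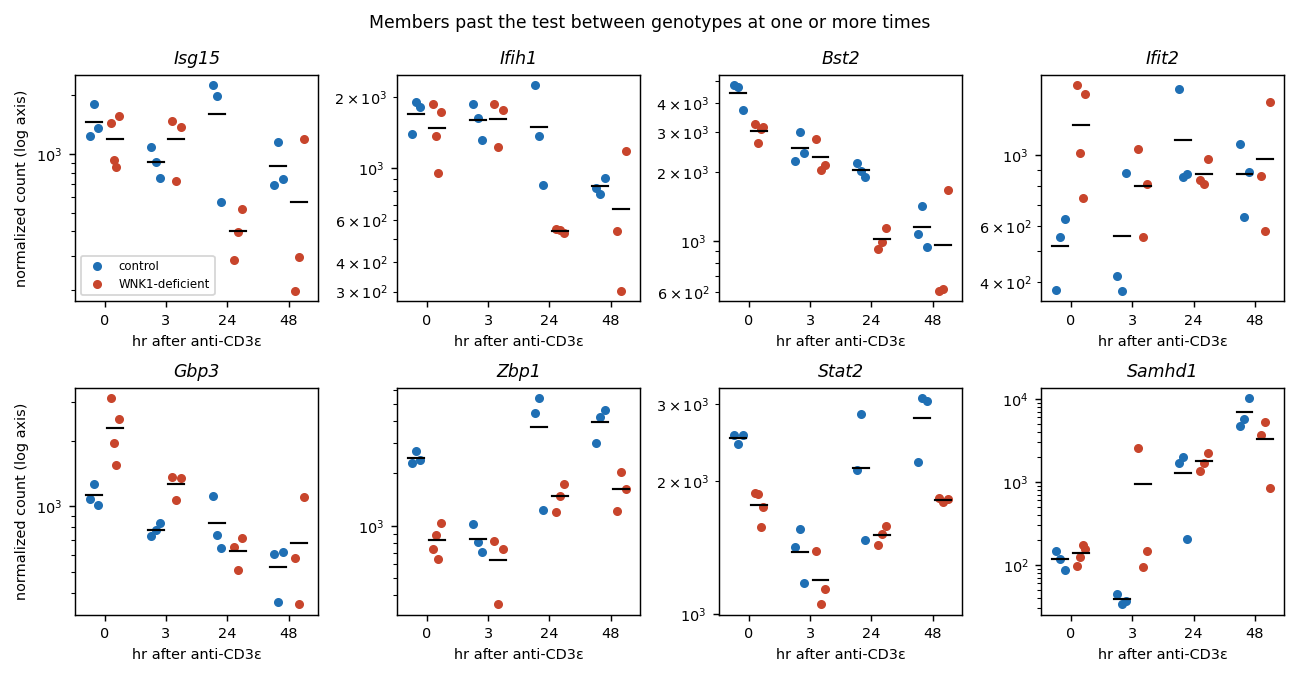
Normalized counts (log axis) of the 8 genes that passed the test between genotypes at 1 or more times, in each library (points) with the group mean (black bar), at 0, 3, 24 and 48 hr. At 24 hr the WNK1-deficient libraries of *Bst2* lie between 922 and 1139 and those of the control between 1915 and 2188, and for *Samhd1* the WNK1-deficient points at 3 hr range from 94.3 to 2585.

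The count at 24 hr depended on control replicate 3. Without it, 18 members were lower in WNK1-deficient thymocytes, where 3.48% of all genes were lower. Without all 3 libraries named as apart, 24 members were lower and no member was higher, where 4.70% of all genes were lower. Control replicate 3 was the lowest of its group for 33 of the 34 genes, so leaving it out favours lower calls in WNK1-deficient thymocytes. Without control replicate 1 only 1 member was called, and without WNK1-deficient replicate 1 or replicate 2 no member was called (limma adjusted p of *Bst2* 0.0624 and 0.0547). Among the genes called without the 3 libraries were *Ifit3* (log2 difference -3.42), *Rsad2* (-2.58), *Ifit1* (-2.31), *Mx1* (-2.30), *Ifi44* (-2.04), *Dhx58* (-1.96), *Rtp4* (-1.94), *Oasl2* (-1.89), *Oas1a* (-1.82), *Zbp1* (-1.74), *Ifitm3* (-1.73) and *Oasl1* (-1.37). Of these *Ifit3* stood at 1884, 1740.0 and 117 in controls and at 122, 138 and 283 in WNK1-deficient thymocytes, so that control replicate 3 was the lowest of all 6 libraries.

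Within lanes the 24 hr difference was not the same. In lane 4, with control replicates 1 and 2 and WNK1-deficient replicate 3, the median difference of the 34 genes was -0.82 on the log2 scale, and in lane 3, with control replicate 3 and WNK1-deficient replicates 1 and 2, it was 0.06. The differences of *Isg15* and *Ifih1* were -2.03 and -1.72 in lane 4 and -0.75 and -0.62 in lane 3. That of *Bst2* was -0.88 in lane 4 and -1.0 in lane 3. For *Ifit3* the same values were -2.67 and 0.14. The difference of *Bst2* was thus of like size in either lane, and the median over the members was near 0 in lane 3.

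Markers of other cells were compared at 24 hr. The summed level of 6 markers of NK and innate lymphoid cells was 87.2 to 193 in control and 404 to 841 in WNK1-deficient libraries, and that of 9 markers of macrophages, monocytes and dendritic cells was 210.5 to 762 against 712 to 942, which overlap, each with all of its markers above 0 in some library. The thymic stroma list was higher in WNK1-deficient libraries, at 10060 to 16879 against 18668 to 21407. Lower in WNK1-deficient libraries were the DN3 and DN4 markers, at 110242 to 214055 in control and 70670.2 to 87707 in WNK1-deficient libraries, and the 4 double positive markers, at 241 to 481 against 203 to 212. The plasmacytoid dendritic cell list was lower as well, at 934 to 1692 against 243 to 327, nearly all of it *Pld4* (log2 difference -2.18, limma adjusted p = 1.97e-05), while *Siglech* was at most 1.84. The neutrophil, B cell and erythroid lists overlapped, and the 5 neutrophil markers summed to at most 9.18. The part of these cells in the differences of the members was not tested.

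At 48 hr 2 members, *Zbp1* and *Stat2*, were lower in WNK1-deficient than in control thymocytes and no member was higher, where 6.95% of all genes were lower and 6.13% higher. The median log2 difference of the 34 genes was -0.44, against -0.01 over all tested genes, and 28 lay below 0. *Zbp1* stood at 2979, 4249 and 4623 in controls and at 1213, 2037 and 1619.7 in WNK1-deficient thymocytes, with a log2 difference of -1.29 (SE 0.39, limma adjusted p = 0.0338). *Stat2* stood at 2218, 3091 and 3051 against 1836, 1794 and 1820.4, with a log2 difference of -0.60 (SE 0.18, limma adjusted p = 0.0288). *Zbp1* and *Stat2* were thus lower at 0 hr as well as at 48 hr, and in both comparisons no WNK1-deficient library reached the lowest control library. Among the marker lists at 48 hr, that for double positive thymocytes was at 858 to 2278 in control and 191 to 534 in WNK1-deficient libraries, that for plasmacytoid dendritic cells at 844 to 1423 against 248 to 326, and that for thymic stroma at 10907 to 14793 against 18668 to 23500.0. The others overlapped between the genotypes, and the part of these cells was not tested.

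The count at 48 hr also rested on single libraries. Without WNK1-deficient replicate 3, 8 members were lower (*Isg15*, *Ifit1*, *Ifit3*, *Dhx58*, *Ifitm3*, *Bst2*, *Rsad2* and *Ifi44*), where 4.21% of all genes were lower, and *Zbp1* and *Stat2* no longer passed (limma adjusted p = 0.0777 and 0.0711). Without the 3 libraries named as apart, 18 members were lower, where 5.74% of all genes were lower. WNK1-deficient replicate 3 was the highest of its group for 29 of the 34 genes, so leaving it out favours lower calls here as well. No member was called without control replicate 2, control replicate 3 or WNK1-deficient replicate 1, and 1 was called without WNK1-deficient replicate 2. With the lane as a covariate neither *Zbp1* nor *Stat2* passed (limma adjusted p = 0.133 for both), although their log2 differences were -1.56 and -0.75. In lane 1, with control replicate 3 and WNK1-deficient replicates 1 and 2, the median difference of the members was -1.04, and no other lane held both genotypes at 48 hr.

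For *Ifit1*, the founding member of the IFIT family of RNA-binding proteins, the control libraries at 48 hr stood at 1033, 1423 and 1147 and the WNK1-deficient libraries at 243, 289 and 2343. *Rsad2* stood at 371, 389.5 and 306 against 45.9, 28.4 and 677. In both, WNK1-deficient replicates 1 and 2 lay below every control and replicate 3 above every control.

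The response to anti-CD3ε in control thymocytes was followed from 0 hr, with the same 0 hr libraries in all 3 comparisons. At 3 hr 5 members were lower (*Zbp1*, *Gbp2*, *Bst2*, *Stat2* and *Ifi35*) and none higher, where 18.4% of all genes were higher and 18.5% lower, and the median log2 difference was -0.66. *Gbp2*, a further guanylate-binding protein, fell from 2737, 3350.1 and 2617 to 1085, 1309 and 1279, a log2 difference of -1.24 (SE 0.23, limma adjusted p = 0.000276). Every 3 hr library lay below every 0 hr library. *Ifi35*, a leucine zipper protein, had a log2 difference of -0.66.

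At 24 hr 3 members were higher in control thymocytes than at 0 hr (*Usp18*, *Ifit2* and *Samhd1*) and 2 lower (*Gbp7* and *Bst2*), where 17% of all genes were higher and 16.9% lower. Without the 3 libraries named as apart 16 were higher, where 18.2% of all genes were higher, among them *Ifit3* (3.41), *Mx1* (2.54), *Rsad2* (2.09) and *Ifit1* (1.47 on the log2 scale). *Mx1*, a gene of the dynamin-like GTPases, stood at 45.7, 85.5 and 161 at 0 hr and at 481, 529 and 64.2 at 24 hr in control thymocytes. Replicates 1 and 2 at 24 hr were above every 0 hr library and replicate 3 was within their range.

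At 48 hr *Samhd1* and *Ddx58* were higher in control thymocytes than at 0 hr, and *Oasl2*, *Ifih1*, *Gbp3*, *Gbp7*, *Bst2* and *Ifitm3* were lower, where 21.6% of all genes were higher and 20.8% lower. *Samhd1* rose from 149, 117 and 87.8 at 0 hr to 4645, 5741 and 10164 at 48 hr, a log2 difference of 5.80 (SE 0.91, limma adjusted p = 2.96e-05), the largest of any member in any comparison. In control libraries at 24 hr it stood at 1692, 1971 and 203. *Bst2* fell from 4822, 4712 and 3752 before injection to 2236, 3004 and 2438 at 3 hr, then to 1072, 1428 and 943 in the 48 hr controls, a log2 difference of -1.96 (SE 0.26, limma adjusted p = 4.43e-06) for the last. *Ifitm3*, which keeps viruses from fusing with endosomal membranes, fell by 3.14 on the log2 scale, from 347, 588 and 399 to 44.9, 78.2 and 32.0. The groups of *Samhd1*, *Bst2* and *Ifitm3* did not overlap.

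In WNK1-deficient thymocytes, again with 1 set of 0 hr libraries for all comparisons, the members called were mostly lower. At 3 hr 4 members were lower than at 0 hr (*Gbp2*, *Gbp3*, *Gbp7* and *Stat2*) and none higher, where 13.3% of all genes were higher and 11.3% lower. At 24 hr 15 members were lower and only *Samhd1* was higher, where 16% of all genes were higher and 14.3% lower, so that 47.1% of the members were called. The members lower at 24 hr were *Isg15*, *Ifit1*, *Oasl2*, *Ifih1*, *Gbp2*, *Gbp3*, *Gbp7*, *Igtp*, *Irgm1*, *Iigp1*, *Bst2*, *Ifitm3*, *Ifi44*, *Rtp4* and *Parp14*. At 48 hr 15 members were again lower and *Samhd1* higher, where 14.3% of all genes were higher and 12.5% lower, and 23 were lower without the 3 libraries named as apart, where 16.4% of all genes were lower. The WNK1-deficient libraries at 48 and 0 hr shared no lane, so that lane cannot be told apart from time. The members lower at 48 hr were those at 24 hr, but for *Ifit1*, with *Dhx58* added.

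Of the 7 GTPases 6 were lower in WNK1-deficient thymocytes at 24 hr than at 0 hr, where 14.3% of all genes were lower. In control thymocytes 1 was lower at 24 hr and 2 at 48 hr, where 16.9% and 20.8% of all genes were. No GTPase passed limma's interaction, so these counts do not show a difference between the genotypes. *Gbp3* in WNK1-deficient thymocytes fell by 1.84 on the log2 scale (SE 0.29, limma adjusted p = 6.57e-05), from the 4 values given for 0 hr to 651, 509 and 718. *Iigp1*, an immunity-related GTPase like *Igtp* and *Irgm1*, went from 3645, 2247, 1102 and 3111 to 605, 609.9 and 967. In both genes every 24 hr library was below every 0 hr library. *Ifi44*, a cytoplasmic interferon-induced protein, fell by 2.94 at 24 hr on the log2 scale, from 1268, 681, 284 and 849 to 57.1, 81.0 and 144.

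Whether the time course itself differed between the genotypes was tested as an interaction, and by limma no member passed at 3, 24 or 48 hr in the fit to all libraries. By limma the counts were 0, with 1, 11 and 6 members at an unadjusted p below 0.05, by edgeR they were 0, and by DESeq2 1, 3 and 0. Of all tested genes, 0.0354% were higher and 0.0354% lower in the interaction at 3 hr, 0.361% and 0.297% in that at 24 hr, and 0.446% and 0.912% in that at 48 hr. The lowest adjusted p at 24 hr was that of *Gbp3* (log2 difference of differences -1.37, SE 0.43, limma adjusted p = 0.145). Without the 3 libraries named as apart 12 members were lower in this test at 24 hr, where 1.12% of all genes were, and 7 at 48 hr, where 1.48% were. *Ifit1*, *Ifit3*, *Mx1*, *Rsad2*, *Dhx58* and *Rtp4* were called at both times in that fit.

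The member of each role group with the highest mean normalized count, a measure that also grows with transcript length, is given in every library. In the group of ISG15 conjugation, with *Isg15* and the ligase *Herc6*, this was *Usp18*, which stood at 504, 943 and 979 in controls and at 1964, 1293, 1437 and 1975 in WNK1-deficient thymocytes at 0 hr. At 24 hr it stood at 3184, 2799.6 and 661 against 1319, 2421 and 2232, and at 48 hr at 1108, 1478 and 1078 against 1621, 2152 and 2992. Its groups were apart at 0, 3 and 48 hr, each time with WNK1-deficient thymocytes higher, and it passed the test at none of them (limma adjusted p = 0.0706 at 0 hr).

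*Ifit1* stood at 460.5, 1106 and 1168 in controls at 0 hr and at 2719, 1402, 841 and 2396 in WNK1-deficient thymocytes, then at 519, 599 and 526 against 1662, 520.2 and 907 at 3 hr. At 24 hr it stood at 2459.7, 2196 and 401 against 327, 471 and 659. The groups overlapped at each of these times. *Ifit1*, *Ifit2* and *Ifit3* lie in 1 cluster on chromosome 19, and *Ifit3* has a near-identical neighbour, so that its reads may be split between copies.

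Of the OAS family, enzymes and related proteins that bind double-stranded RNA and whose best known product activates RNase L, *Oasl2* was the highest, beside *Oas1a* and *Oasl1*. It stood at 1534, 3011 and 2339 in controls and at 2678, 2541, 1612 and 3166 in WNK1-deficient thymocytes at 0 hr, then at 1346, 1242 and 1025 against 2379, 1086 and 3122 at 3 hr. The 24 hr values were 2286, 2094 and 562 against 468, 619 and 708, and at 48 hr 453, 636 and 595 against 272, 156 and 2137. It overlapped between the genotypes at every time, and at 24 and 48 hr 1 library of a group crossed to the level of the other.

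*Adar*, the RNA editing enzyme, was the highest of the sensors and editors, which also hold *Ddx58* (RIG-I), *Dhx58* (LGP2), *Ifih1*, *Zbp1* and *Samhd1*. It stood at 5219, 5857 and 5515 in controls and at 4635, 5545, 5249 and 5339 in WNK1-deficient thymocytes at 0 hr, then at 4531, 4557 and 3223 against 5741, 4476 and 5952 at 3 hr. Values of 6795, 8604 and 3649 against 4354, 5092 and 5034 followed at 24 hr, and 6459.6, 8162 and 9424 against 5443, 6239 and 6187 at 48 hr. Only the 48 hr groups were apart, and no comparison between the genotypes passed the test.

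*Igtp*, or IRGM3, was the highest of the GTPases, which also hold *Gbp2*, *Gbp3*, *Gbp7*, *Irgm1*, *Iigp1* and *Mx1*. It stood at 4549, 5095 and 4395 in controls and at 6093, 5146, 4583 and 5447 in WNK1-deficient thymocytes at 0 hr, then at 2748, 3287 and 3181 against 3929, 2759 and 3886 at 3 hr. The 24 hr values were 4179, 3972 and 1973 against 2447, 2802 and 2967, and at 48 hr 2679.8, 2996 and 3835 against 2010.4, 2470.1 and 3956. The genotypes overlapped at every time, and the fall from 0 hr passed in WNK1-deficient thymocytes at 24 and 48 hr.

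*Ifi27*, a small membrane protein, was the highest of the membrane-bound group, with *Bst2*, *Ifitm3* and *Rsad2*. The symbol was matched as an older name to the row *Ifi27l1* of the table (mean 3101), and *Ifi27l2a* (mean 316), an overlapping gene on chromosome 12, has carried the same name, so which of them is meant is uncertain and reads could be split between them. With *Ifi27l2a* in its place the highest of the group would be *Bst2* (mean 2225). *Ifi27l2a* passed in no comparison between the genotypes either, but was higher in control thymocytes at 24 and 48 hr than at 0 hr (log2 differences 1.75 and 2.40, limma adjusted p = 0.0410 and 0.00502). The matched row of *Ifi27* stood at 3313, 4283 and 3681 in controls and at 3116, 2794, 3218 and 3177 in WNK1-deficient thymocytes at 0 hr, then at 2557, 2031 and 2176 against 3256, 1908 and 2954 at 3 hr. At 24 hr the values were 6166, 5238 and 2062 against 2927, 3874 and 3362, and at 48 hr 2558, 2746 and 3770.5 against 1463, 2127 and 2759. It passed the test in no comparison between the genotypes.

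*Lgals3bp*, a secreted galectin-binding glycoprotein, was the highest of the remaining group, with *Stat2*, *Ifi35*, *Ifi44*, *Xaf1*, the chaperone *Rtp4*, the ADP-ribosyltransferase *Parp14* and *Trim30a*. It stood at 7388, 8677 and 8011 in controls and at 5671, 6707, 6973 and 7015 in WNK1-deficient thymocytes at 0 hr, then at 9937, 8379.9 and 6310.0 against 7677, 6419 and 11184 at 3 hr. At 24 hr the values were 9606, 13424 and 5870.4 against 5376, 5879 and 6157, and at 48 hr 6906, 9378 and 7801 against 5889.7, 5389 and 8229. Only the 0 hr groups were apart. *Xaf1*, an antagonist of an inhibitor of apoptosis, and *Trim30a*, a ubiquitin ligase, passed in no comparison, nor did *Herc6*. *Trim30a*, *Oas1a* and the guanylate-binding proteins have close paralogs that may share reads.

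Among the ligands of the pathway that were found in the table, reads were almost only those of interferon-γ. Of 21 interferon genes listed, with *Ifng*, 11 were found. The others, all of type I and such as *Ifna1*, were matched to no row, so their reads are not known. Of 10 type I and type III interferon genes found in the table, 9 had no read in any of the 25 libraries and *Ifnb1* had 2 reads in all, where a count of 0 allows up to 3 reads in a library by counting error only. *Ifng*, which encodes interferon-γ, was at 0 in all control libraries at 0 hr and at 19.4, 22.3, 12.7 and 29.4 in WNK1-deficient libraries. At 3 hr it stood at 45.1, 91.0 and 26.2 against 241, 174 and 386, then at 24 hr at 4.93, 3.33 and 3.67 against 18.5, 16.8 and 13.1. The groups were apart each time and the difference passed at 0, 3 and 24 hr (limma adjusted p = 5.58e-07, 0.0019 and 0.0127). At 48 hr *Ifng* stood at 5.61, 16.7 and 6.01 against 6.74, 4.62 and 4.92.

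**Figure D5:**
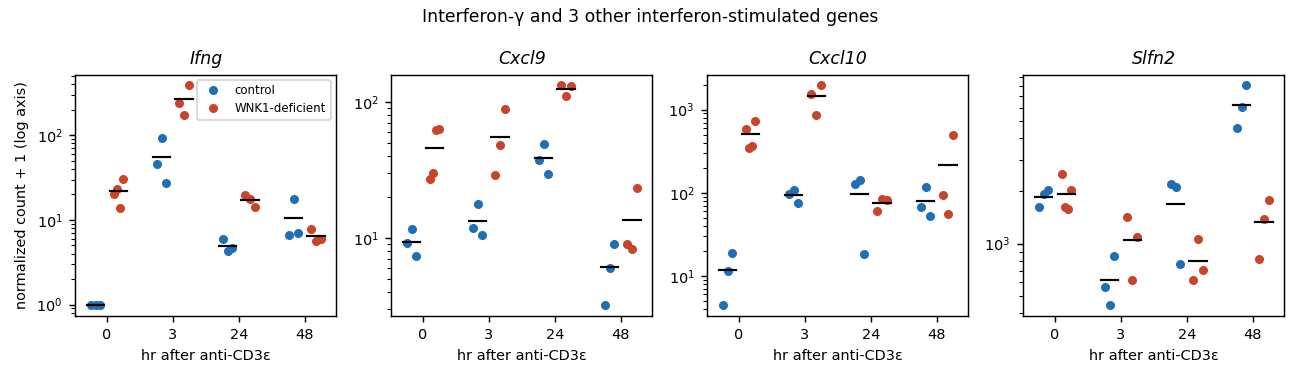
Normalized count + 1 (log axis) of *Ifng*, *Cxcl9*, *Cxcl10* and *Slfn2* in each library (points) with the group mean (black bar), at 0, 3, 24 and 48 hr. Control libraries at 0 hr are at 0 for *Ifng* and between 3.52 and 18 for *Cxcl10*, and WNK1-deficient libraries at 0 hr are between 12.7 and 29.4 and between 347 and 739.

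Outside the 34, the chemokine genes *Cxcl9* and *Cxcl10*, whose products draw CXCR3+ cells, were higher in WNK1-deficient thymocytes at 0 and 3 hr. *Cxcl10* stood at 3.52, 10.6 and 18 in controls and at 578, 347, 369 and 739 in WNK1-deficient thymocytes, a log2 difference of 5.60 (SE 0.67, limma adjusted p = 8.59e-06). At 3 hr it stood at 96.2, 107 and 74.4 against 1554, 860.3 and 1951 (3.90, SE 0.72, limma adjusted p = 0.00149). The groups were apart at both times. *Cxcl9* had a log2 difference of 2.20 at 0 hr and 1.94 at 3 hr.

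Of 58 further interferon-stimulated genes, 51 were tested, and between the genotypes the numbers higher were 3, 2, 1 and 1 at 0, 3, 24 and 48 hr, and the numbers lower were 5, 2, 7 and 8. Of all tested genes 11%, 5.75%, 7.03% and 6.13% were higher and 11.1%, 3.43%, 5.45% and 6.95% lower at these times. The 58 genes were listed with results of these data known, and their median log2 difference was -0.00, -0.04, -0.55 and -0.66 at the 4 times in order. The lower genes at 24 hr were *Isg20*, *Eif2ak2*, *Oas2*, *Mndal*, *Ddx60*, *Parp10* and *Parp12*, and the higher gene was *Cxcl9*. *Eif2ak2*, which encodes the double-stranded RNA-activated kinase PKR, had a log2 difference of -1.48 (SE 0.34, limma adjusted p = 0.00618). *Uba7*, the activating enzyme for ISG15, stood at 4655, 4838 and 4043 in controls and at 2026, 2262, 2417 and 2104 in WNK1-deficient thymocytes at 0 hr. It was lower at 0, 3 and 48 hr, with log2 differences of -1.03, -0.71 and -1.06.

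Among 5 tested interferon receptor genes *Ifngr2* was lower in WNK1-deficient thymocytes at 24 and 48 hr, with log2 differences of -0.61 and -0.63, and no other passed between the genotypes. Of the 3 JAK kinases *Jak2* was higher at 0 hr (log2 difference 0.92, limma adjusted p = 0.00414). Of 7 IRF genes *Irf3* and *Irf8* were lower at 0 hr, *Irf1* was higher at 3 hr and *Irf3* was lower at 48 hr. Of 10 tested sensors and adaptors *Cgas* and *Tlr7* were higher and *Mavs* lower at 0 hr, *Cgas* was higher at 3 hr, *Sting1* was higher at 24 hr, and *Mavs* and *Ikbke* were lower at 48 hr. Of 6 inhibitors *Ptpn2* was higher at 0 hr, and *Socs1* and *Cish* were higher at 24 hr. The shares of all tested genes called were those given above, such as 11% higher and 11.1% lower at 0 hr.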

How the data were processed

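The deposited table held, for each of 25 libraries, gene counts that the authors had estimated with RSEM 1.2.31 from reads trimmed with Trimmomatic 0.36 and aligned with STAR 2.5.2a to GRCm38, and divided by a DESeq2 1.18.1 size factor (R 3.4.1); this deposited signal is called the normalized count. Divided by the step of each library, the value that stands for a single read, all values were whole reads within 0.001 in all 25 libraries, and 23 passed a further check on low values. The size factor sets libraries to a common scale, so levels are compared between libraries and not between genes. Genes with a mean of at least 10 (14141 of 48795) were tested with limma 3.58.1 (R 4.3.3) on log2(normalized count + 1) with 1 mean for each genotype and time, over all 25 libraries, and p-values were adjusted by Benjamini-Hochberg over all genes of a comparison with a threshold of 0.05. Folds are on that scale and understate the change of low genes. Depth was 22527777 to 57304830 reads (median 36567984). Each library came from another mouse, and groups came from the labels.

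The members, lists and tests were chosen with earlier results of these data known. Every member is named; values in each library are given for those past the test between genotypes and for the member of each role group with the highest mean, and Ifit3, Rsad2, Mx1, Ifitm3, Gbp2, Iigp1 and Ifi44 were added after their values were seen. Alternatives were other pseudocounts, filters and scalings, only the groups compared, a replicate block, the lane, edgeR 4.0.16 and DESeq2 1.42.0 on the recovered reads, and leaving out libraries. Scripts were tested on simulated data. Of the type I and III interferon genes listed, 10 were found, and the others were matched to no row. A gene of the pathway list is not reported here.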

Additional observations from a re-analysis of the deposited data

Results flagged for a closer look

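By limma's interaction in the fit to all libraries none of the 34 genes passed, although DESeq2 called 1 at 3 hr and 3 at 24 hr, and limma called 12 at 24 hr and 7 at 48 hr without the 3 libraries named as apart and up to 2 with 1 library left out. Among the other genes of the pathway 4 passed limma's interaction. For Cxcl10, a chemokine gene, the difference between the genotypes was smaller at 24 hr than at 0 hr by -5.49 on the log2 scale (adjusted p = 0.00859) and at 48 hr by -4.74 (adjusted p = 0.018). For Ifng the value at 48 hr was -4.95 (limma adjusted p = 0.000198), and all control libraries at 0 hr were at 0, so that this fitted value depends on the pseudocount. For Slfn2, a Schlafen family gene, it was -2.29 at 48 hr (limma adjusted p = 0.0286), with 4583, 6044 and 8023 normalized counts in control and 819, 1383 and 1781 in WNK1-deficient libraries. For Irf8, a transcription factor of the IRF family, it was 1.78 at 3 hr (limma adjusted p = 0.0403). All share the 0 hr libraries, where genotype and lane cannot be told apart. No library of WNK1-deficient thymocytes at 0 hr, the only group of 4, stood apart from its group for any of the 34 genes by Dixon's test.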

How the results depend on the processing

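Of 158 comparisons with another setting, 44 counts of the 34 genes called moved by over 1.5 times. The 158 include the looser and stricter promoter letters, which are no fits. The differences of the genes named between genotypes kept their call in 104 of 120 fits with another setting and lost it in 16, but lost it in 35 of 64 fits with 1 library left out. None of these differences reversed its direction. With the lane as a covariate the counts between genotypes at 0, 3, 24 and 48 hr were 0, 0, 5 and 1 (4, 1, 3 and 2 as reported), those in control thymocytes at 3, 24 and 48 hr against 0 hr were 20, 17 and 5 (5, 5 and 8), and that in WNK1-deficient thymocytes at 3 hr was 8 (4). At 3 and 24 hr against 0 hr the lane term rests on WNK1-deficient replicate 3 at 48 hr, named as apart. Its group alone held libraries from lanes 1 or 2 and from lanes 3 or 4, so these counts cannot separate lane from time. Between genotypes at 0 hr the lane term rests on the 48 hr controls, the only group with both lane 1 and lane 2. Of all tested genes, 1330 were higher and 1243 lower in controls at 3 hr with the lane, against 2609 and 2623 as reported. With only the groups compared the counts of the 34 genes were 8, 0, 1 and 1 between genotypes, 19 and 17 in controls at 3 and 48 hr, and 8 and 9 (16 as reported) in WNK1-deficient thymocytes at 3 and 48 hr. Without the 3 libraries named as apart they were 8, 2, 24 and 18 between genotypes, 11, 18 and 18 in controls, 9 and 25 in WNK1-deficient thymocytes at 3 and 48 hr, and 12 and 7 for the interactions at 24 and 48 hr. DESeq2 called 3 and 11 between genotypes at 3 and 24 hr, 12 and 8 in controls at 3 and 24 hr, and 1 and 3 for the interactions at 3 and 24 hr. edgeR called 10 in controls at 3 hr and 10 in WNK1-deficient thymocytes at 48 hr. With no filter the counts were 0 and 1 between genotypes at 3 and 48 hr, 3 in controls at 24 hr and 2 in WNK1-deficient thymocytes at 3 hr. With a mean of at least 100 and with the same upper quartile 8 and 11 were called in controls at 3 hr, and with the same total 1 between genotypes at 48 hr. The number of all tested genes called also changed with the setting, and the counts of members are to be read beside it. Between genotypes at 0 hr 1552 of 14141 genes were higher and 1572 lower as reported. These became 2383 and 2393 with only the groups compared, 375 and 290 with the lane, and 1859 and 1872 without the 3 libraries. DESeq2 called 1152 of 14125 genes higher and 1087 lower at 24 hr, against 994 and 771 of 14141 as reported. The causes were not tested.

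Same-numbered libraries of the genotypes deviated together by correlations of -0.197 to 0.205, so the numbers do not pair them. With the replicate block the counts in WNK1-deficient thymocytes were 2 at 3 hr and 10 at 48 hr, and no other count moved by over 1.5 times, while Stat2 at 0 hr lost its call (limma adjusted p = 0.0636).

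Leaving out 1 library at a time gave 1 to 4, 0 to 1, 0 to 18 and 0 to 8 calls between genotypes at 0, 3, 24 and 48 hr, 3 to 5, 3 to 13 and 4 to 8 in controls, 1 to 4, 10 to 16 and 7 to 20 in WNK1-deficient thymocytes, and 0 to 0, 0 to 2 and 0 to 2 for the interactions. Between genotypes at 0 hr the count was 1 without control replicate 1 or WNK1-deficient replicate 4 and 2 without control replicate 3 or WNK1-deficient replicate 1. Without control replicate 1, 878 of all 14141 tested genes were higher and 852 lower, against 1552 and 1572 with all libraries. In controls the count of members was 3 at 3 hr without replicate 1 or 2 of 0 hr or replicate 3 of 3 hr, 3 at 24 hr without replicate 1 or 2 of 0 hr or replicate 1 of 24 hr, 13 without replicate 3 of 24 hr, and 4 at 48 hr without replicate 2 of 0 hr. In WNK1-deficient thymocytes it was 2 at 3 hr without replicate 1, 2 or 4 of 0 hr, 1 without replicate 2 or 3 of 3 hr, 10 at 24 hr without replicate 1 of 24 hr, 10 at 48 hr without replicate 1 or 4 of 0 hr or replicate 1 of 48 hr, and 7 without replicate 2 of 48 hr. The share of members with an ISRE core was 69.2% with the looser letters GAAANNGAA and 53.8% with the stricter GAAANNGAAAC.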
